A study of Homo sapiens with 6 samples.

Results

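The genes described here encode the enzymes and transporters of glycolysis, lactate handling, the pentose phosphate pathway and the pyruvate dehydrogenase complex, 31 genes in all. They were chosen by symbol, each matched 1 Ensembl identifier, and they are 31 of 58233 identifiers in the deposited tables. RNA sequencing was done on 6 libraries of total RNA from T24, an established human bladder carcinoma line. In 3 libraries the cells carried a lentiviral vector (VEC), and in the other 3 they carried a constitutively active mutant of RhoC named Q63E, a small GTPase that acts on the actin cytoskeleton. All cells were stably transduced and puromycin-selected. What promoter drove the transgene is not stated in the labels. The labels do not say that the libraries of a group came from separate cultures or clones, so p-values cover only the spread among the 6 libraries, part of which could be technical. Values are taken as FPKM, a length-normalised read density per gene, and the depth of the libraries is unknown.

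Glycolysis splits glucose into a pair of triose phosphates in its upper part and oxidises these to pyruvate, with a net gain of ATP, in its lower part. Lactate dehydrogenase turns pyruvate into lactate, which monocarboxylate transporters carry out of the cell, while the pyruvate dehydrogenase complex commits pyruvate to the mitochondrial citric acid cycle. The pentose phosphate pathway branches off at glucose 6-phosphate. Its oxidative part yields NADPH, and its reversible non-oxidative part exchanges sugars between ribose 5-phosphate and glycolytic intermediates. Carcinoma cells are known for high glycolysis even in oxygen, and several of these genes are textbook targets of hypoxia-inducible factors and of MYC.

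RHOC, the transduced gene, had values of 232, 218 and 232 in VEC libraries 1 to 3 and of 1770.1, 1726 and 1744 in Q63E libraries 1 to 3. The groups are separated as the labels state. The row does not tell the mutant from the cell's own RHOC. Summed values ran from 726929 to 769026 per library, and rows of the mitochondrial chromosome held 8.44% to 9.44% of the sum in VEC and 5.58% to 6.27% in Q63E. The epithelial keratins KRT7, KRT8 and KRT18 were high in every library and higher in Q63E: KRT8 had 581 ± 2.12 in VEC and 985 ± 8.79 in Q63E, KRT18 515 ± 6.54 and 788 ± 1.66, and KRT7 1031 ± 15.02 and 1454 ± 50.9. KRT19 went from 5.67 ± 0.393 to 161 ± 1.85, a ratio of 28.4, and EPCAM, too low to be tested, from 0.313 ± 0.0404 to 1.52 ± 0.202. VIM, a mesenchymal filament gene, was lower in Q63E, at 3212 ± 42.9 in VEC and 2193 ± 92.5 in Q63E (adjusted p = 0.000359 in limma). The urothelial uroplakins UPK1B, UPK2 and UPK3A, CDH1 and KRT5 were at or near 0, and GATA3 had 1.79 ± 1.40 and 0.363 ± 0.352, with overlap. Of these markers, KRT7, KRT8, KRT18, KRT19, EPCAM and VIM differed between the groups without overlap. Their part in the results on the 31 genes was not tested. Of the leukocyte markers, PTPRC and CD3E were listed at 0 throughout, and the summed level of the 5 markers was 0.350 to 0.490 in VEC and 0.140 to 0.300 in Q63E. The summed levels stayed at or under 0.240 for 4 endothelial markers, at or under 0.410 for 3 muscle markers and at or under 0.560 for 2 neuronal markers. The 5 fibroblast markers summed to 1.89 to 2.28 in VEC and to 2.44 to 3.70 in Q63E.

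Of the 31 genes, 12 were higher and 5 lower in Q63E cells. The risen genes included ALDOA, TPI1, GAPDH, PGK1, ENO1, ENO2 and PKM of lower glycolysis and its entry, LDHA and the lactate carrier SLC16A1, RPE and TKT of the non-oxidative pentose phosphate part, and PDHB. PFKL, PFKM, PGLS, PGD and DLAT fell. A value here is a mean over all cells of a library, so fewer cells of a kind and less RNA per cell cannot be told apart. Most differences were small: 9 of the 12 rises were under 1.3-fold as ratios of group means, and ENO2, TKT and PDHB exceeded it. All 31 genes passed the minimum mean of 1 and were tested, with group means in VEC from 8.31 for TIGAR to 7097 for GAPDH. The test was limma on log2(value + 1) over all 13346 genes that passed this minimum, with Benjamini-Hochberg adjustment and a threshold of 0.05.

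Across all genes tested 25.3% passed the threshold, 11.3% higher and 14.0% lower, against 54.8% of the 31 genes, 38.7% higher and 16.1% lower. The share of lower calls is thus near that of all genes, while the share of higher calls is above it. In 16 of the 31 genes all Q63E libraries lay above all VEC libraries, and in 7 they lay below, where 21.1% and 22.8% of all genes tested did so (43.9% in either direction). The median log2 difference was 0.10 over the 31 genes and −0.00 over all genes tested. With the median of the 50 nearest genes on the chromosome subtracted from each gene, the medians were 0.00317 and 0.00233. The 31 genes took up 3.03% to 3.09% of the sum in VEC libraries and 3.48% to 3.54% in Q63E libraries. The genes were chosen with earlier results of these data known, so no test of the list as a whole is given. In the main fit 1510 of all 13346 genes were higher and 1873 lower. With each library rescaled to the same sum the 31 genes had 12 higher and 2 lower calls in place of 12 and 5. Over all genes this gave 1823 higher and 1586 lower calls. With no filter on low values the 31 genes had 8 and 3, and all 26697 genes then tested had 1152 and 1557. Scaled by the sum of rows outside the mitochondrial chromosome, the calls were 12 and 5, and 1343 and 1883 over all genes. With any 1 library left out there were 8 to 11 higher and 2 or 3 lower calls among the 31. Over all genes these fits gave 994 to 1153 higher and 1325 to 1477 lower calls.

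**Figure D1:**
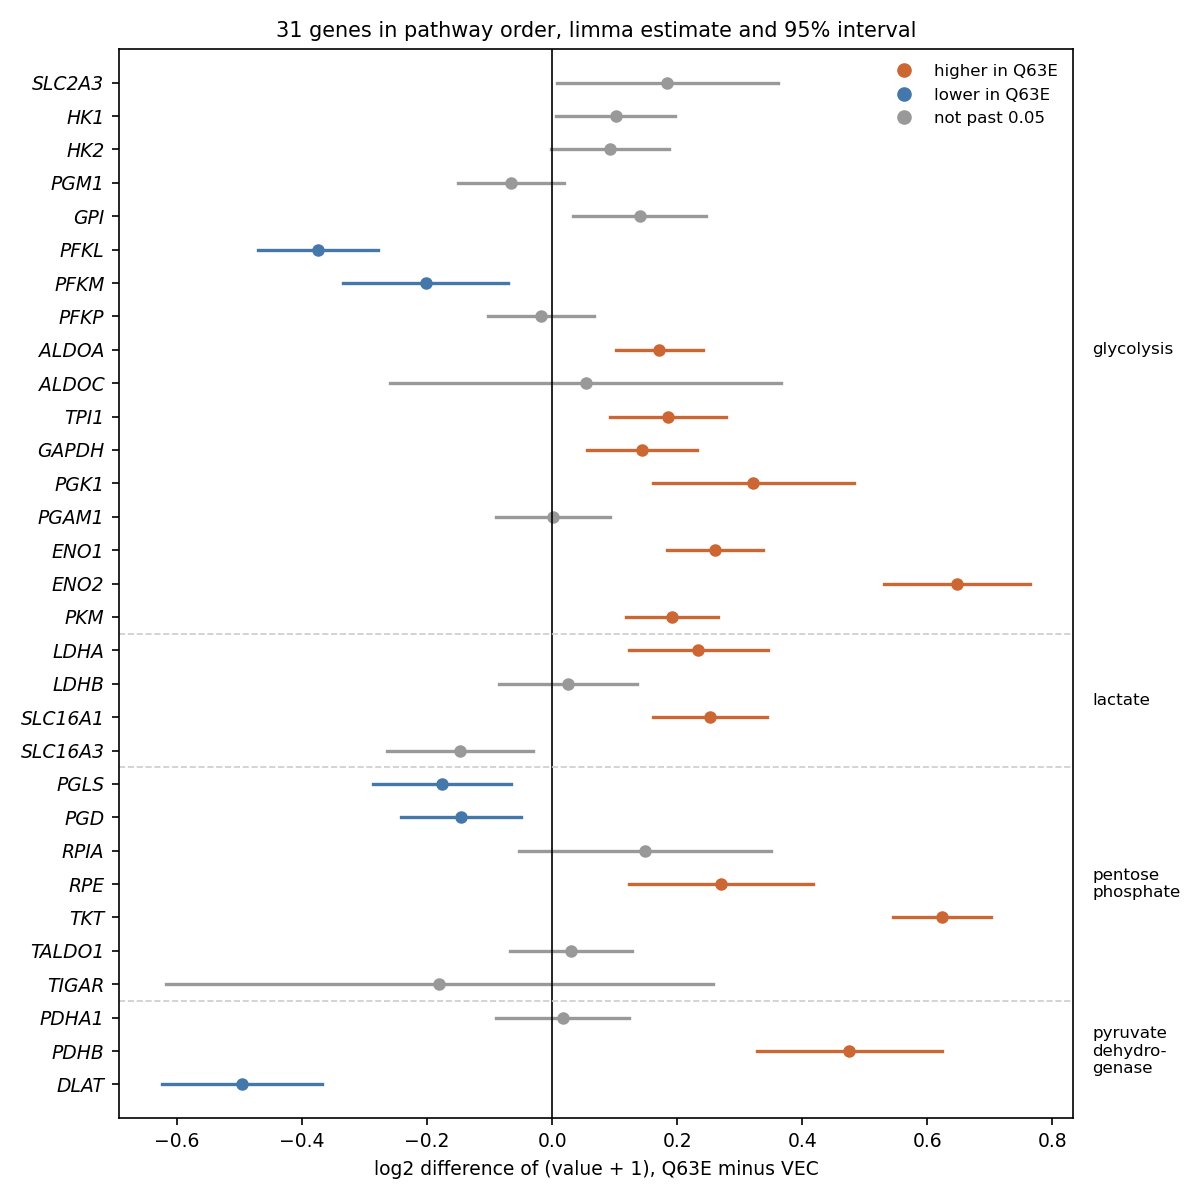
Estimated log2 difference of (value + 1), Q63E minus VEC, for the 31 genes in pathway order (points) with the unadjusted 95% interval of limma (lines); dashed lines separate the 4 branches. From ALDOA to LDHA the estimates lie at or right of 0, while PFKL and PFKM lie left of it, and ENO2, TKT, PDHB and DLAT lie farthest from 0.

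The largest differences in size were those of ENO2, TKT, DLAT and PDHB, in that order, and the promoters of these 4 genes are shown for that reason. Each sequence is the 250 bases before the RefSeq start of the gene on GRCh38.p14, read on the gene's strand. Capitals mark the hypoxia response cores ACGTG and GCGTG and the E-box CACGTG on either strand; CACGTG contains ACGTG, and neighbouring matches can overlap. The window of ENO2 is chr12:6914330-6914579 on the plus strand, that of TKT chr3:53256023-53256272 on the minus strand, that of DLAT chr11:112025158-112025407 on the plus strand and that of PDHB chr3:58433833-58434082 on the minus strand. The gene coordinates given below come from another annotation. By them the windows of ENO2 and DLAT lie inside the gene, and those of TKT and PDHB overlap its start.
ENO2 promoter: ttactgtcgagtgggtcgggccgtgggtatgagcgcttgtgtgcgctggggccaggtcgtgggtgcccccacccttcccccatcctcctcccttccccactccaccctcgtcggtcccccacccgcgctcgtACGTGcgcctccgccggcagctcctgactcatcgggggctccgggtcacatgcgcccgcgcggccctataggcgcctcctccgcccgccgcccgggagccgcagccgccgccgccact
TKT promoter: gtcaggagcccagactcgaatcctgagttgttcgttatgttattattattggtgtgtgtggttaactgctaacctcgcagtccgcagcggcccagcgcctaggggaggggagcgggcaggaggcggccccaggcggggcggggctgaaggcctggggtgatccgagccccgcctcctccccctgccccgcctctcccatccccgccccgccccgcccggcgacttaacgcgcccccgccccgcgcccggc
DLAT promoter: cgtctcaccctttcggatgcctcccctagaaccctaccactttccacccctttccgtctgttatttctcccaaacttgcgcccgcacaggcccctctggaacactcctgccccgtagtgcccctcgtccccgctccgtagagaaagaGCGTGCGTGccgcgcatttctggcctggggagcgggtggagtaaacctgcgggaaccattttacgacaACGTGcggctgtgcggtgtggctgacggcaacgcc
PDHB promoter: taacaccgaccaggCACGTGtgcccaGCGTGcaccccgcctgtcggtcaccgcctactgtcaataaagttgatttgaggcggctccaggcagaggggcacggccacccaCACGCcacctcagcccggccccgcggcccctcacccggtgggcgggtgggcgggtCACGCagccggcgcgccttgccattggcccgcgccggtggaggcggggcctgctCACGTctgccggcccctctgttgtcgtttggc
ENO2 holds 1 ACGTG, and TKT holds none of the 3 motifs. DLAT, the gene that fell, holds 1 ACGTG and 2 GCGTG. PDHB holds 3 ACGTG, 2 of them the opposite strands of its 1 CACGTG, and 3 GCGTG. RefSeq promoters were found for 29 of the 31 genes. ACGTG or GCGTG occurred in 7 of the 11 matched genes that rose, in 3 of the 5 that fell and in 6 of the 13 that did not pass. In the same order, ACGTG occurred in 6, 2 and 4 of these genes, GCGTG in 3, 3 and 4, and CACGTG in 3, 0 and 1. Of the 29 promoters, 55.2% held ACGTG or GCGTG, 41.4% held ACGTG, 34.5% held GCGTG and 13.8% held CACGTG. Of all 27326 promoters of this length, 43.1% held ACGTG or GCGTG, 18.7% held ACGTG, 31.9% held GCGTG and 6.5% held CACGTG. A match here describes letters in this window and not a bound site, and whether the motifs bear on the differences was not tested.

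Among the 31 genes, the glucose transporter SLC2A3 and the hexokinases did not pass, while the transporter SLC2A1, which is outside the 31, is given with the further pathway genes. SLC2A3 encodes the high-affinity glucose transporter GLUT3. It had values of 20.5, 18.8 and 21.9 in VEC and 22.9, 24.8 and 22.2 in Q63E. The groups did not overlap, but the log2 difference of 0.18 (SE 0.074) did not pass (adjusted p = 0.119 in limma). SLC2A14, a near-identical copy whose reads could be shared with SLC2A3, was at 0.0700 or listed at 0 in every library. Pseudogenes of SLC2A3, found by name in 3 rows, summed to a mean of 1.265, which is 5.79% of the value of SLC2A3. The hexokinases, which trap glucose as its phosphate, had ratios of means of 1.07 each, with no overlap between the groups and no call. HK1 had 188 ± 5.51 in VEC and 202 ± 6.79 in Q63E (mean ± SD, n = 3 per group, here and below; log2 difference 0.10, adjusted p = 0.112 in limma). HK2 had 74.3 ± 1.72 and 79.3 ± 2.37 (log2 difference 0.09, adjusted p = 0.135). The unadjusted 95% intervals of the log2 difference ran from 0.01 to 0.20 for HK1 and from −0.00 to 0.19 for HK2.

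GPI and PGM1, the isomerase and mutase that act on glucose phosphates, did not pass either. GPI, which forms fructose 6-phosphate, had 253, 282 and 270 in VEC and 296, 294 and 296 in Q63E. Its lowest Q63E library lay above its highest VEC library, and the log2 difference of 0.14 (SE 0.044) did not pass (adjusted p = 0.0617 in limma). Without VEC replicate 2 the adjusted p of GPI was 0.0386. PGM1, which links glycogen to glycolysis, went the other way, with 56.3 ± 0.629 in VEC and 53.7 ± 0.897 in Q63E (log2 difference −0.07, adjusted p = 0.225).

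Phosphofructokinase, the main control point of glycolysis, has 3 subunit genes, and the liver-type and muscle-type ones were lower in Q63E cells. PFKL, the liver type, had 107, 101 and 107 in VEC and 79.3, 83.2 and 79.7 in Q63E. The groups were far apart relative to their spread (log2 difference −0.38, SE 0.040, adjusted p = 0.00132 in limma), and the call passed when any 1 library was left out. PFKM, the muscle type, had 43.3, 38.7 and 39.3 in VEC and 35.03, 34.1 and 35.8 in Q63E (log2 difference −0.20, SE 0.055, adjusted p = 0.0394). The call of PFKM was lost when any 1 of the 6 libraries was left out (adjusted p from 0.0505 to 0.108). Exons of SENP1, at a mean value of 9.98, overlap 8.58% of the exon length of PFKM. PFKP, the platelet type and the most abundant of the 3, had 214 ± 4.41 in VEC and 212 ± 6.10 in Q63E, and its groups overlapped (adjusted p = 0.749). The summed value of the subunits went from 360 ± 6.87 to 327 ± 5.41. This is a ratio of 0.910, with no overlap and an exact two-sided permutation p of 0.1, the smallest that 3 against 3 allow.

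Below phosphofructokinase, most genes were higher in Q63E cells, with ratios of means from 1.10 to 1.25 apart from ENO2. ALDOA, the aldolase that splits the hexose into trioses, had 1869.7, 1814 and 1833 in VEC and 2070.1, 2069 and 2072 in Q63E. The Q63E values were nearly identical and all above VEC (log2 difference 0.17, SE 0.029, adjusted p = 0.00742 in limma). The call of ALDOA was lost with no filter on low values and with quantile normalization. Its far less abundant relative ALDOC had 30.4 ± 3.60 in VEC and 31.7 ± 5.17 in Q63E, with overlapping groups (adjusted p = 0.795).

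TPI1, which interconverts the trioses, had 1503, 1410.1 and 1441 in VEC and 1603, 1696 and 1652 in Q63E (log2 difference 0.19, adjusted p = 0.0161 in limma). GAPDH, which carries out the oxidation step and is often used as a reference gene, was the most abundant of the 31. It had 7270, 6939 and 7081 in VEC and 7749, 8016 and 7755 in Q63E (log2 difference 0.14, SE 0.037, adjusted p = 0.0314). Both genes were higher in each Q63E library than in any VEC library, by ratios of means of 1.14 and 1.10. These calls were close to the threshold. GAPDH lost its call without VEC replicate 2 or 3 or any 1 of the Q63E libraries (highest adjusted p 0.115). TPI1 lost it without VEC replicate 3, Q63E replicate 2 or Q63E replicate 3 (highest adjusted p 0.0621).

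PGK1, the first ATP-forming kinase of the pathway, had 813, 711 and 758 in VEC and 909, 1026 and 918 in Q63E. Its ratio of means of 1.25 was the largest among the single-gene steps of glycolysis (log2 difference 0.32, SE 0.067, adjusted p = 0.0158 in limma). Without VEC replicate 3 its adjusted p was 0.0523. PGAM1, the mutase that follows, did not pass: it had 1515, 1404 and 1442 in VEC and 1439, 1479 and 1446 in Q63E. These groups overlapped, and the 95% interval of the log2 difference ran from −0.09 to 0.09.

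Both genes of enolase, which forms phosphoenolpyruvate, rose, and ENO2 rose most among the genes of glycolysis. ENO1, the widely expressed form, had 2901, 2802 and 2822 in VEC and 3384, 3455 and 3372 in Q63E (log2 difference 0.26, SE 0.032, adjusted p = 0.00221 in limma). ENO2, the form best known from neurons, had 117, 111 and 119 in VEC and 186, 188 and 172 in Q63E. All Q63E libraries of ENO2 lay well above all VEC libraries, with a ratio of means of 1.57 (log2 difference 0.65, SE 0.049, adjusted p = 0.000399). ENO2 lies on chromosome 12 from 6913745 to 6923698 and ENO1 on chromosome 1 from 8861000 to 8879250 (GRCh38, GENCODE release 29). Both calls passed in each of the alternatives run. The summed enolase value was 2957 ± 54.5 in VEC and 3586 ± 52.0 in Q63E, most of it ENO1.

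PKM, the pyruvate kinase of most tissues and tumours, had 2056, 2011 and 2042 in VEC and 2315, 2371 and 2293 in Q63E. All Q63E libraries lay above all VEC libraries (log2 difference 0.19, SE 0.031, adjusted p = 0.00595 in limma). The row sums the splice forms PKM1 and PKM2, which are not told apart here. From hexokinase to pyruvate kinase the 15 genes summed to 18515 ± 409 in VEC and 20813 ± 377 in Q63E, a ratio of 1.12 with no overlap.

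**Figure D2:**
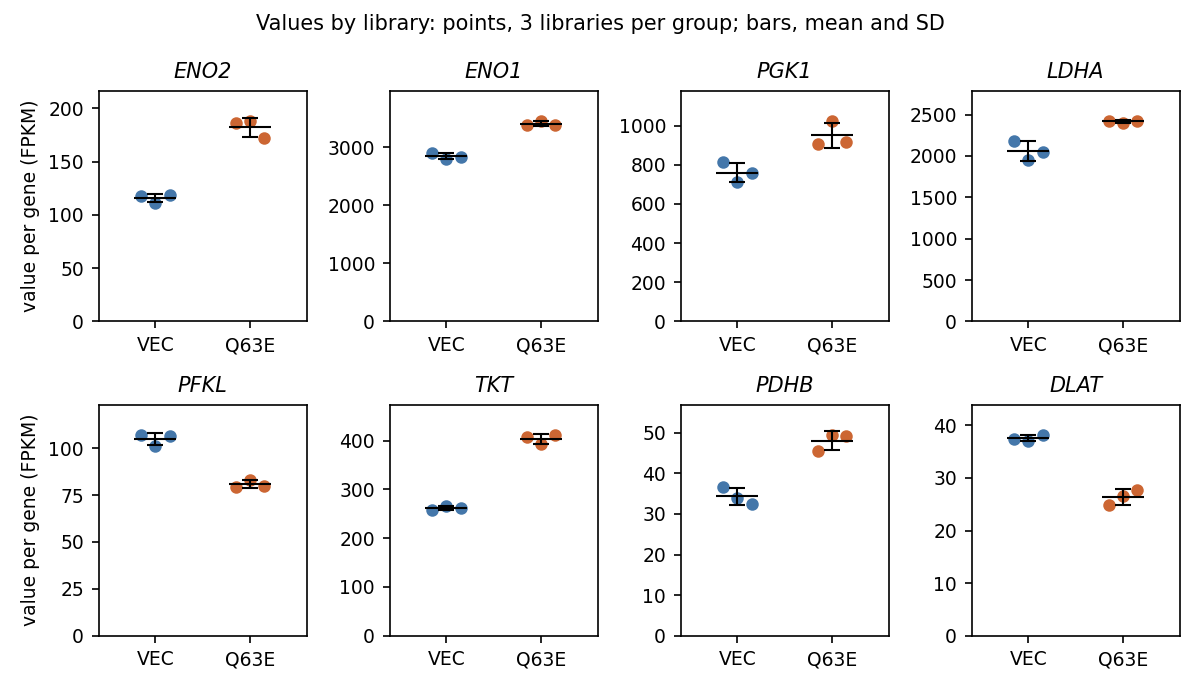
Value per gene (FPKM, axes from 0) in each library of VEC and Q63E for 8 of the genes; points are libraries, bars the mean and SD of 3. The groups do not overlap in any of the 8, with ENO2, TKT and PDHB showing the widest gaps upward and DLAT and PFKL the widest downward.

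In lactate metabolism, the M-type subunit and 1 carrier rose while the H-type subunit did not pass. LDHA, whose enzyme favours lactate formation, had 2180.4, 1947 and 2046 in VEC and 2426, 2397 and 2427 in Q63E. The lowest Q63E library was above the highest VEC library (log2 difference 0.23, SE 0.046, adjusted p = 0.0134 in limma). Without VEC replicate 3 the adjusted p was 0.0519. LDHB had 772 ± 31.9 in VEC and 786 ± 32.0 in Q63E, with overlapping groups and a 95% interval of the log2 difference from −0.08 to 0.14.

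The estimates for the lactate carriers had opposite signs. SLC16A1, which encodes MCT1, had 37.0, 36.9 and 35.9 in VEC and 43.3, 43.7 and 44.3 in Q63E (log2 difference 0.25, SE 0.038, adjusted p = 0.00473 in limma). SLC16A3 encodes MCT4, the carrier typical of lactate-exporting cells, and was far more abundant. It had 825, 750 and 778 in VEC and 737, 707 and 678 in Q63E. Each Q63E library of SLC16A3 lay below each VEC library, but the log2 difference of −0.15 (SE 0.049) did not pass (adjusted p = 0.0715), although it did with quantile normalization. Exons of CSNK1D, at a mean value of 129, overlap 5.36% of the exon length of SLC16A3, so some reads could belong to either. BSG, the accessory chain that brings both carriers to the membrane, did not pass (300.5 ± 9.03 in VEC and 294 ± 3.83 in Q63E).

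The shares of alternative isozymes within a library cannot be moved by the scaling of that library, and 6 such shares were compared. The platelet type PFKP made up 59.1%, 60.7% and 58.9% of the phosphofructokinase value in VEC and 65.6%, 64.2% and 64.1% in Q63E, 5.08 percentage points more. ENO2 made up 3.92% ± 0.114 of enolase in VEC and 5.08% ± 0.198 in Q63E. LDHB made up 27.3% ± 0.614 of lactate dehydrogenase in VEC and 24.5% ± 0.774 in Q63E. SLC16A3 made up 95.5% ± 0.208 of the summed carriers in VEC and 94.2% ± 0.291 in Q63E. In these 4 comparisons the groups did not overlap. Each had an exact two-sided permutation p of 0.1, which becomes 0.15 after adjustment over the 6 shares, so none could pass. HK2 among the hexokinases (28.4% ± 1.0 and 28.2% ± 0.143, exact permutation p = 0.8) and ALDOC among the aldolases (1.63% ± 0.214 and 1.51% ± 0.243, exact permutation p = 0.5) overlapped between groups.

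**Figure D3:**
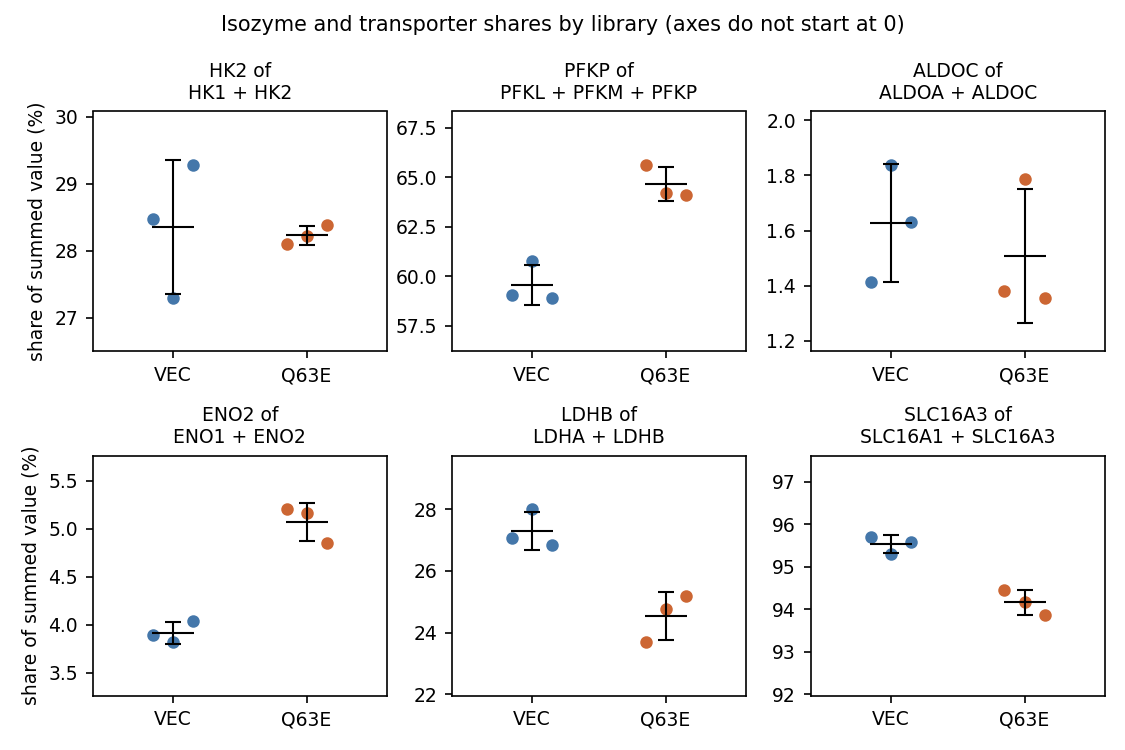
Share of 1 isozyme or carrier in the summed value of its family, in percent, for each library (points; bars are mean and SD of 3; the axes do not start at 0). The groups are apart for PFKP, ENO2, LDHB and SLC16A3 and overlap for HK2 and ALDOC.

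In the pentose phosphate pathway, the oxidative enzymes PGLS and PGD were lower, and RPE and TKT of the non-oxidative part were higher. PGLS, the lactonase, had 27.1, 26.8 and 28.3 in VEC and 23.6, 24.2 and 24.6 in Q63E (log2 difference −0.18, SE 0.046, adjusted p = 0.0340 in limma). PGD, the phosphogluconate dehydrogenase that forms NADPH, had 82.6, 84.4 and 80.4 in VEC and 74.2, 76.9 and 72.2 in Q63E (log2 difference −0.15, SE 0.040, adjusted p = 0.0395). The groups did not overlap in either gene, yet both calls lay close to the threshold. PGLS lost its call when any 1 of the 6 libraries was left out (adjusted p from 0.0605 to 0.104). PGD lost it without any 1 of the libraries except Q63E replicate 2 (highest adjusted p 0.112).

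TKT, the transketolase that moves carbon pairs between sugars, had 257, 266 and 261 in VEC and 407, 392 and 412 in Q63E. The groups were far apart, with a rise of 1.54-fold (log2 difference 0.62, SE 0.033, adjusted p = 0.000112 in limma), and it passed in each of the alternatives run. TKT lies on chromosome 3 from 53224707 to 53256052. RPE, the ribulose phosphate epimerase, had 37.9, 36.3 and 39.4 in VEC and 45.2, 49.3 and 43.2 in Q63E (log2 difference 0.27, SE 0.061, adjusted p = 0.0212). Its call was lost without VEC replicate 1, VEC replicate 2 or Q63E replicate 1 (highest adjusted p 0.0640). Exons of KANSL1L, at a mean value of 3.31, overlap 23.8% of the exon length of RPE. RPIA, the ribose phosphate isomerase, went from 17.4 ± 1.14 to 19.5 ± 1.85 with overlap (adjusted p = 0.246).

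TALDO1, the transaldolase and the other sugar-exchanging enzyme of the non-oxidative part, did not pass. It had 193, 186 and 183 in VEC and 184, 192 and 198 in Q63E, with a 95% interval of the log2 difference from −0.07 to 0.13. As a description chosen after the values were seen, TKT over TALDO1 was 1.40 ± 0.0554 in VEC and 2.11 ± 0.0898 in Q63E. TIGAR, a phosphatase that lowers fructose bisphosphate and favours the pentose branch, had the lowest mean of the 31 genes in VEC and did not pass. Its values were 10.4, 7.43 and 7.15 in VEC and 8.87, 7.0 and 5.78 in Q63E, with overlapping groups. The 95% interval of its log2 difference, from −0.62 to 0.26, does not narrow down a change.

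In the pyruvate dehydrogenase complex PDHB rose while DLAT fell. PDHB, the beta subunit of the E1 component that decarboxylates pyruvate, had 36.7, 33.8 and 32.4 in VEC and 45.4, 49.5 and 49.3 in Q63E (log2 difference 0.48, SE 0.061, adjusted p = 0.00266 in limma). PDHA1, the alpha subunit of the same component, had 175, 171 and 178 in VEC and 168, 185 and 177 in Q63E, and its groups overlapped (adjusted p = 0.810). DLAT, the acetyltransferase core E2 of the complex, had 37.4, 37.1 and 38.2 in VEC and 24.8, 26.5 and 27.8 in Q63E. Its fall was the largest of the 31 genes (ratio of means 0.702, log2 difference −0.50, SE 0.053, adjusted p = 0.00132). Both PDHB, on chromosome 3 from 58427630 to 58433857, and DLAT, on chromosome 11 from 112024814 to 112064390, passed in each of the alternatives run. PDHB over DLAT was 0.914 ± 0.0655 in VEC and 1.82 ± 0.0482 in Q63E, a description chosen after the values were seen.

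A further list of 48 pathway genes covered other isoforms, regulators and the remaining subunits. Of these, 30 had a mean of at least 1 and were tested, 3 were higher and 4 lower, together 23.3% against 25.3% of all genes tested. The calls thus came at about the rate of all genes. Highest in size was PFKFB4, a bifunctional enzyme that sets the level of the activator of phosphofructokinase, with 40.9, 38.3 and 37.8 in VEC and 67.5, 70.7 and 66.0 in Q63E (log2 difference 0.79, adjusted p = 0.000201 in limma). Its relative PFKFB3 fell, from 167, 178 and 178 to 135, 151 and 132 (log2 difference −0.32, adjusted p = 0.0105). PFKFB2 was at 27.7 in VEC replicate 2 and between 1.75 and 2.35 in the other 5 libraries, and it did not pass.

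Among transporters, SLC2A1, which encodes the widely expressed glucose carrier GLUT1, rose from 296 ± 8.17 to 333 ± 1.56 (log2 difference 0.17, adjusted p = 0.0109 in limma). SLC2A6 fell from 22.03 ± 1.40 to 12.9 ± 0.703 (log2 difference −0.73, adjusted p = 0.000895). MPC1, a subunit of the mitochondrial pyruvate carrier, fell from 11.5 ± 0.921 to 8.34 ± 1.51 (adjusted p = 0.0484). PGM2 fell from 37.5 ± 0.997 to 33.0 ± 1.19 (adjusted p = 0.0348). GPD1L, a glycerol phosphate dehydrogenase-like gene, rose from 5.38 ± 0.293 to 7.21 ± 0.0954 (adjusted p = 0.0164). The last 3 calls were lost in leave-one-out fits: that of MPC1 without any 1 library except Q63E replicate 2 (highest adjusted p 0.133), that of PGM2 without any 1 of the 6 (highest 0.106) and that of GPD1L without Q63E replicate 1 or 3 (highest 0.0572). The kinases that switch off pyruvate dehydrogenase, PDK1, PDK2 and PDK3, did not pass. PDK1 had 25.7 ± 2.85 in VEC and 30.9 ± 1.07 in Q63E (adjusted p = 0.0649).

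Transcription factors known to act on these genes changed in both directions. HIF1A, the oxygen-regulated subunit of hypoxia-inducible factor 1, had 60.0, 67.0 and 57.7 in VEC and 38.9, 34.1 and 42.4 in Q63E (log2 difference −0.67, SE 0.092, adjusted p = 0.00347 in limma). EPAS1, which encodes the related HIF-2 alpha, had 32.0, 32.7 and 34.4 in VEC and 58.4, 62.9 and 54.2 in Q63E (log2 difference 0.80, SE 0.064, adjusted p = 0.000464). The order of both genes was thus opposite in the 2 groups, with HIF1A above EPAS1 in every VEC library and below it in every Q63E library. MYC rose from 43.8 ± 3.88 to 61.9 ± 1.89 (adjusted p = 0.00358). ESRRA, a nuclear receptor of mitochondrial genes, fell from 22.4 ± 1.94 to 17.2 ± 0.482 (adjusted p = 0.0140). NFE2L2, which drives NADPH-forming genes, fell from 43.1 ± 2.16 to 37.5 ± 1.36 (adjusted p = 0.0389), a call lost without any 1 library except VEC replicate 1 (highest adjusted p 0.108). MLXIP did not pass (14.8 ± 0.666 in VEC and 15.9 ± 0.591 in Q63E), while MLXIPL and PPARGC1A were near 0 and not tested. Whether any of these transcripts bears on the enzymes was not tested.

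Some of the differences ran along with those of neighbouring genes on the chromosome. For each gene the median log2 difference of the 50 nearest tested genes was taken, 25 on each side. It was within 0.2 of 0 for 27 of the 31 genes. The exceptions were PFKP (−0.38), PFKL (−0.31), TKT (0.30) and SLC16A1 (0.30). With the neighbours' median subtracted in each library, 10 of the 31 genes were higher and 1 was lower, where 8.32% and 9.08% of the genes in that fit were.

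PFKL and SLC16A1 did not pass once their surroundings were subtracted: their log2 differences became −0.06 (adjusted p = 0.389 in limma) and −0.04 (adjusted p = 0.522). PFKP overlapped between groups while the median of its neighbours on chromosome 10 was −0.38, and against them it was higher by 0.36 (adjusted p = 0.00270). TKT had 0.33 in place of 0.62 (adjusted p = 0.00175). ENO2 (0.60), ENO1 (0.31), LDHA (0.26), PKM (0.16), ALDOA (0.17), TPI1 (0.14) and PDHB (0.35) were still called higher, GPI (0.20) was called in addition, and DLAT (−0.35) was the 1 gene called lower. GAPDH, PGK1, RPE, PFKM, PGLS and PGD did not pass in that fit, at adjusted p from 0.0624 for PFKM to 0.572 for PGLS. Estimates that had not passed turned negative in HK1 (−0.01), HK2 (−0.07), ALDOC (−0.03), PGAM1 (−0.05) and PDHA1 (−0.08), and none of these 5 passed in either fit. Of the further pathway genes, PFKFB4 had 0.42 after the same subtraction (adjusted p = 0.00387 in limma). SLC2A6 also passed, and SLC2A1 did so narrowly (adjusted p = 0.04996). G6PC3 (−0.25, adjusted p = 0.0121) and PDHX (−0.35, adjusted p = 0.0477), which had not passed before, were called lower in that fit. The calls of PFKFB3 (0.05, adjusted p = 0.638), PGM2 (0.13, adjusted p = 0.166), GPD1L (0.00935, adjusted p = 0.953) and MPC1 (−0.44, adjusted p = 0.0724) were lost. The part that these regional differences had in the results was not tested.

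**Figure D4:**
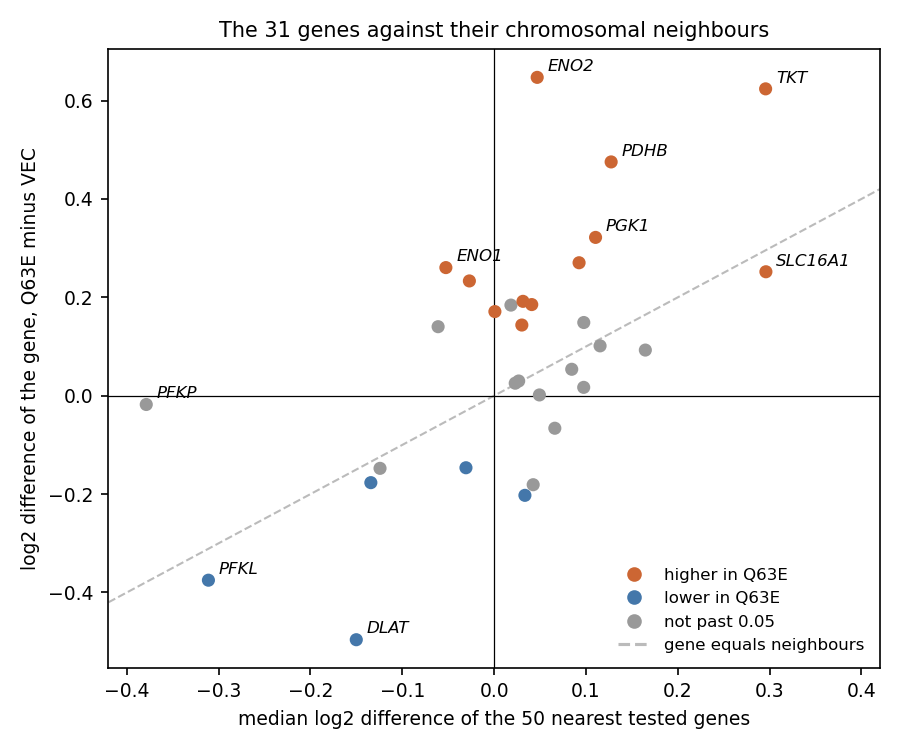
Log2 difference (Q63E minus VEC) of each of the 31 genes against the median log2 difference of its 50 nearest tested genes on the chromosome; the dashed line marks equality. PFKL and SLC16A1 lie near the line, ENO2, ENO1, PDHB and TKT lie above it, PFKP lies above it at a negative neighbour median, and DLAT lies below it.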

How the data were processed

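RNA sequencing of 6 T24 libraries (3 VEC, 3 Q63E, grouped by title) was used. The authors deposited 1 value per gene and library, to 2 decimals, and these values are taken as FPKM. No header or label gives a unit; short mitochondrial genes rank at the top and library totals differ, as with length-normalised values. Per the submitters' processing notes, HISAT2 2.1.0, Bowtie2 and the build GRCh38.p10 were used, in roles the notes do not state. Counter, annotation and strand setting are not given in the sources used, so reads of overlapping genes or near-identical copies may be shared. Whole-read steps were searched for among genes with 1 transcript. At the best of many trial depths, 25.1% to 29.8% of a library's low values lay within 0.1 of a whole number. Without steps 20% is expected at any 1 trial depth, and the best of many can lie above that. The depth is thus unknown and no counting intervals are given. The 649 rows of unnamed loci (0.274% to 0.511% of a library's sum) were left out.

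Genes with a mean of at least 1 were tested on log2(value + 1) with limma 3.58.1 in R 4.3.3 (lmFit, eBayes with trend, group only, two-sided), adjusted over all 13346 genes. These differences understate the change of low genes. Shares and sums were compared with exact permutation tests. The steps were tested on simulated data. Members and lists were chosen with earlier results of these data known. All 31 members may be named. From a list of 48 other pathway genes, those past the threshold, also those past it only with neighbours subtracted, and the PFKFB, PDK and BSG genes that were tested are named. The transcription factors and identity markers come from fixed lists, and some listed genes are not reported here. Coordinates are from GENCODE release 29 on GRCh38, promoters from RefSeq on GRCh38.p14. Alternatives covered pseudocounts of 0.1 and 5, no filter or a minimum mean of 5, 3 other scalings, the replicate number as a block, eBayes without trend, subtraction of neighbouring genes and leaving out each library.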

Additional observations from a re-analysis of the deposited data

How the results depend on the processing

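The 31 genes kept the direction of their 17 calls in every alternative run except 1: SLC16A1 went to −0.0440 once the median of 50 neighbouring genes was subtracted. That subtraction also turned PFKP (0.36), PFKFB3 (0.0534), PGM2 (0.13) and 5 uncalled genes named above, left 1 of the 31 genes lower in place of 5, and moved the median log2 difference of the 31 genes from 0.10 to 0.00317. ENO1, ENO2, TKT, PDHB and DLAT passed in all 16 alternatives. The count of lower genes among the 31 was 3 with no filter on low values and with quantile normalization, and 2 with libraries rescaled to equal sums and with eBayes without trend. The count of higher genes was 8 with no filter, where ALDOA, TPI1, GAPDH and LDHA lost their calls, and 10 with eBayes without trend, where TPI1 and GAPDH did. Over all genes tested, quantile normalization gave 1730 higher and 1699 lower calls, and eBayes without trend gave 1353 and 1698. With quantile normalization ALDOA lost its call, and HK1 and SLC16A3 gained one. Rescaling to equal sums raised the median of the 31 genes to 0.138 (all genes: 0.03), and in the other pathway list it left 2 lower genes in place of 4, as did eBayes without trend.

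No pairing by replicate number was seen in the values: same-numbered VEC and Q63E libraries had correlations of their deviations from −0.0419 to −0.00866 across genes. These correlations cannot show whether same-numbered libraries were prepared together. With the replicate number as a block, 2208 genes passed in place of 3383, among them 5 higher and 2 lower of the 31 (without ALDOA, TPI1, GAPDH, PGK1, PKM, LDHA, RPE, PFKM, PGLS and PGD) and 1 higher and 2 lower of the other pathway genes. The block takes up degrees of freedom. Leaving out each library in turn gave 2350 to 2630 genes, 8 to 11 higher and 2 to 3 lower of the 31, 2 to 3 higher and 2 to 3 lower of the other pathway genes, and a median of 0.08 to 0.13. The shares moved within these ranges of percentage points: PFKP 4.59 to 5.66, ENO2 1.09 to 1.27, LDHB −3.08 to −2.33, SLC16A3 −1.51 to −1.22, ALDOC −0.260 to −0.0141 and HK2 −0.646 to 0.348. Scaling by TMM factors was not run, since the files hold no counts. The unknown depth limits what can be said of genes with low values such as TIGAR. The cause of these shifts was not tested.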
